A study of Mus musculus with 2 samples.

Results

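The genes described here encode the substrate adaptors of cullin-RING ubiquitin ligases that carry the family names Asb, Klhl, Kbtbd, Fbxo, Fbxl and Fbxw. Members were all genes with a protein-coding transcript whose symbol is 1 of these 6 names followed by a number, leaving out Asb4, Fbxo30, Fbxo32 and Fbxo40. Of 141 matching symbols, 4 were left out by name and 1 had no protein-coding transcript, which gave 136 members among 55450 annotated genes, 21901 of them with a protein-coding transcript. They comprised 17 Asb, 36 Klhl, 9 Kbtbd, 33 Fbxo, 18 Fbxl and 23 Fbxw genes.

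The study profiled total RNA of calf muscle (gastrocnemius) in 2 male mice of the B6Cast F1 cross (strain B6CASTF1/J) at 25 days of age. There was 1 group with no treatment or contrast, and 300 ng of RNA per animal went into a single library, with an ERCC spike-in profile for stranded libraries reduced in ribosomal RNA. The labels number the tissues as different males and as biological replicates 1 and 2, but give both the same donor entry. The labels thus leave unsettled how separate the samples are, and differences between them may be technical. With 1 library per animal, a difference between the 2 animals cannot be tested against variation between animals. Levels are therefore given per animal.

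A cullin-RING ligase is built on an elongated cullin that holds a RING protein, which recruits the ubiquitin-carrying enzyme, at 1 end and an exchangeable adaptor for the substrate at the other. Typically, ASB proteins bind CUL5 through a SOCS box and the elongins B and C. KLHL and KBTBD proteins typically bind CUL3 directly through a BTB domain, and F-box proteins typically bind CUL1 through SKP1. In skeletal muscle these ligases are known for the turnover of sarcomere and cytoskeletal proteins, and KLHL40, KLHL41 and KBTBD13 are genes of nemaline myopathy, a congenital disease of the thin filament.

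The libraries held 35098487 (animal 1) and 37428588 (animal 2) expected counts, of which the members took 0.385% and 0.414%. Levels are TPM, a length-corrected share of the transcripts in a library, which allows different genes to be compared. All 10 markers of skeletal muscle were present at a mean of 713 to 22842 TPM, and 0 of 6 germ cell markers reached 1 TPM. By scaled counts, 3 of the 10 muscle markers were higher and 7 lower in animal 2, with 0 beyond 2-fold. Markers of other cells were also present and differed between the libraries, with all 6 slow-fibre markers higher in animal 2 (summed 1035 and 1924 TPM) and 4 of 6 fibroblast markers lower (1742 and 1148 TPM), although Col3a1 among these 4 was 229 TPM in each animal and lower by scaled counts only. The Schwann cell list had 3 of 5 markers higher in animal 2 (53.3 and 107 TPM) and the adipocyte list 2 of 4 lower (11.6 and 6.46 TPM). Endothelial markers summed to 51.6 and 59.2 TPM, with 2 of 5 higher in animal 2, among them Kdr (4.31 and 7.59 TPM). Macrophage markers summed to 17.3 and 15.8, with 1 of 5 lower, and satellite cell markers to 10.9 and 12.5, with 1 of 4 higher. In whole muscle, fewer cells of a type and less RNA per cell cannot be told apart.

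The promoters of the most abundant adaptors are shown first, because 6 of the 14 such windows that could be used carried a consensus match to the muscle factor MEF2. Windows from 250 bases before to 50 after each annotated start were taken from RefSeq (GRCm38.p6, the mm10 build) and were found for 109 of 136 members. For 88 the window lay within 100 bases of the start of the leading transcript, the transcript with the largest share of the gene, and these were used. The Klhl41 window is given for all 250 bases before the start (chr2:69669870-69670119, plus strand), 5′ to 3′, with the MEF2 match in capitals.
Klhl41: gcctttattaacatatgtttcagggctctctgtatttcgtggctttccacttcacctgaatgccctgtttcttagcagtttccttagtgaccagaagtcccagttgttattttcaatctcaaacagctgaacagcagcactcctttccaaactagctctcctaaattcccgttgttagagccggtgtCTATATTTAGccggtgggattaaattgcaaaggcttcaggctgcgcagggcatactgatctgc
Stretches around the match in the other 5 members follow, read along the strand of the gene, again with the match in capitals: Klhl33 (chr14:50897499-50897558, minus strand), Asb14 (chr14:26894574-26894603, plus), Asb16 (chr11:102268668-102268727, plus), Kbtbd12 (chr6:88627486-88627545, minus) and Asb12 (chrX:95478143-95478202, minus).
Klhl33: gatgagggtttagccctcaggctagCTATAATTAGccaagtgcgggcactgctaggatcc
Asb14: tatagtaaagCTATTTATAAtggtcaccgg
Asb16: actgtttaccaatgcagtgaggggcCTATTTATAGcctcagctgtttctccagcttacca
Kbtbd12: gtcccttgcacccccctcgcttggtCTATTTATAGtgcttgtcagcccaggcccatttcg
Asb12: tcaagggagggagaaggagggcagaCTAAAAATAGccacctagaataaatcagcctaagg
The match began between 30 and 91 bases before the RefSeq start in these 6 genes, at -63 in Klhl41, -50 in Klhl33, -30 in Asb14, -58 in Asb16, -91 in Kbtbd12 and -48 in Asb12. From the start of the leading GENCODE transcript, the Asb14 match instead began at position 28, inside that transcript, while the other 5 lay before the start. In Asb14, Asb16 and Kbtbd12 the match overlapped the letters TATAAA on the opposite strand.

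A second motif of muscle genes, the CArG box bound by SRF, had a match in Asb2 at -64 (chr12:103356031-103356090, minus strand) and in Asb5 at -211 (chr8:54550095-54550154, plus strand). The capitals mark that match.
Asb2: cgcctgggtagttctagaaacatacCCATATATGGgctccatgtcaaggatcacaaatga
Asb5: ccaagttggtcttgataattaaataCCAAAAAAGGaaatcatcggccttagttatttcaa
All motifs were counted over both strands. The MEF2 consensus matched in 6 of 14 windows of members at 20 TPM or more (42.9%). It matched in 1 of 41 windows of members from 1 to under 20 TPM (2.44%), in 1 of 33 of those under 1 TPM (3.03%) and in 3.19% of all 32851 RefSeq windows of the same length. Among the remaining abundant protein-coding genes, at the same 20 TPM limit, 41 of 1286 windows had it (3.19%). The median GC content was 53.7% in the windows of the 14 members and 61.3% in those 1286. CArG matched in 2 of 14 windows of the abundant members and in 1.63% of all windows. The 2 remaining motifs, the MCAT element (CATTCC) and the central-GC E-box (CAGCTG), matched in 0 of 14 and 6 of 14, against 14.7% and 16.3% of all windows. The E-box was as frequent in members under 1 TPM (16 of 33), but these include close Fbxw copies on chromosome 9, described below. Every window used from those copies had CAGCTG, so these windows do not count as independent. The MEF2 match under 1 TPM was in 1 of them, Fbxw26. The looser E-box CANNTG, which covers CAGCTG, matched in 11 of 14 and in 72.3% of all windows. TATAAA matched in 5 of 14 and in 13.6% of all windows, and it overlaps the MEF2 match in 3 genes as given above. Of the other members at 20 TPM or more, Klhl31, Asb11, Asb10 and Fbxw11 had a window farther from the leading start, with no MEF2 match in it, and Klhl24 and Klhl30 had none in the table. The 6 abundant members with a MEF2 match are all on the list of muscle adaptors described below. The match from 1 to under 20 TPM was in Asb18, also on it. Listed genes without a match were Asb2, Asb5, Klhl40, Fbxo31 and Asb8 and, under 20 TPM, Klhl34 and Kbtbd13 among others. Fbxw5, Klhl21 and Fbxo9, abundant but not listed, had no match. Whether the matches go with level or with the list was not tested. A match describes the letters in the window and is neither a binding site nor a cause of the level. The motifs were chosen after the levels had been seen, and no test was made of the difference.

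**Figure D1:**
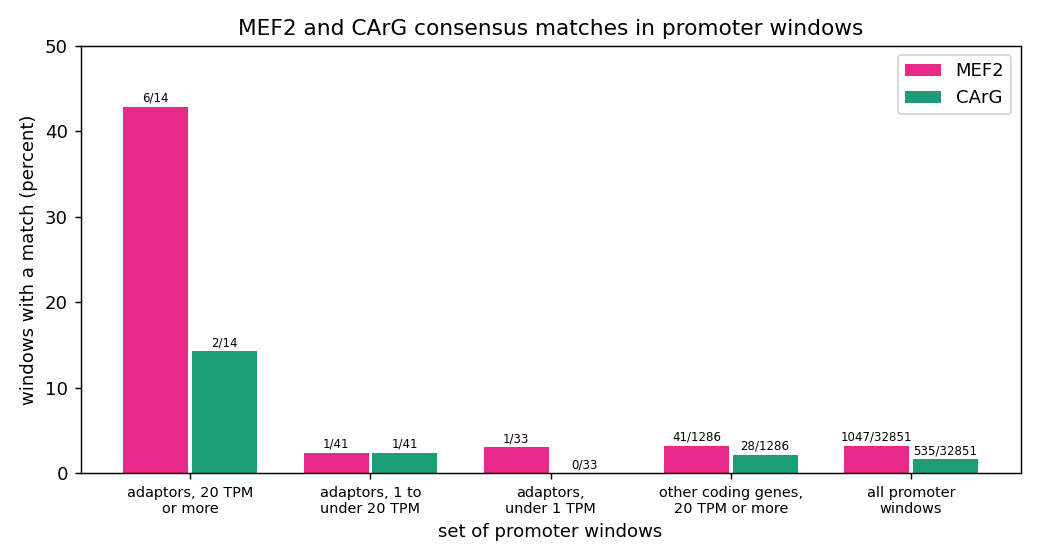
Percent of promoter windows (y axis) with a MEF2 or CArG consensus match on either strand, for members by mean TPM, other protein-coding genes at 20 TPM or more and all RefSeq windows (x axis), with the number of windows above each bar. MEF2 reaches 42.9% in the 14 windows of members at 20 TPM or more and lies between 2.44% and 3.19% in the other 4 sets plotted.

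At a threshold of 1 TPM in both animals, 82 of 136 members (60.3%) were detected, against 45.4% of all protein-coding genes. The median member stood at 2.28 TPM in animal 1 and 2.36 in animal 2, beside 0.64 and 0.69 for all protein-coding genes. A further 4 members passed in animal 2 alone, namely Klhl29 (0.89 and 1.32 TPM), Fbxl15 (0.80 and 1.13), Kbtbd8 (0.57 and 1.17) and Fbxo46 (0.86 and 1.14). The members nearest the threshold on its upper side in both animals were Fbxo33 (1.30 and 1.23) and Fbxw17 (1.20 and 1.35), and on its lower side Fbxo10 (0.76 and 0.99) and Klhl42 (0.86 and 0.88). The remaining 50 were under 1 TPM in both animals: 19 had 0 counts in both, 16 had from 1 to 19 summed counts and 15 had 20 or more. For a gene at 0 counts, counting error alone leaves room for 3 counts, which is 0.0855 CPM (counts relative to library size) in animal 1 and 0.0802 in animal 2.

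Families differed in level. Asb genes had the highest median, 7.0 and 8.83 TPM in animals 1 and 2, with 15 of 17 detected. Klhl followed at 2.97 and 3.14 with 25 of 36, Kbtbd at 2.14 and 2.15 with 6 of 9, Fbxl at 2.01 and 2.09 with 10 of 18, and Fbxo at 1.65 and 2.23 with 19 of 33. The Fbxo values spanned those of Kbtbd and Fbxl. The Fbxw median was 0 in both animals, with 7 of 23 detected.

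**Figure D2:**
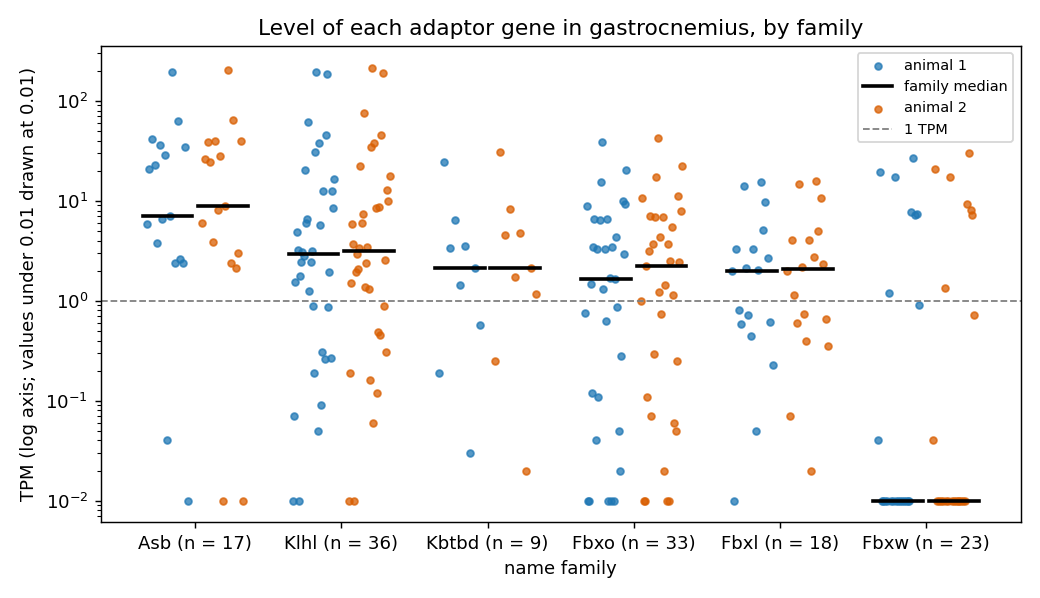
TPM of each of the 136 members (y axis, log) in animal 1 (blue) and animal 2 (orange) by name family (x axis), with the family median as a black bar, the 1 TPM threshold dashed and values under 0.01 drawn at 0.01. Asb has the highest median in both animals and Fbxw a median of 0, drawn at 0.01.

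A few members held most of the transcripts. Summed over all members, TPM reached 1496 in animal 1 and 1609 in animal 2, of which the first 3 genes held 38.5% and 37.8% and the first 10 held 60.2% and 59.2%. Of the 20 members at a mean of 20 TPM or more, 15 were on a list of adaptors known from muscle, and the other 5 were Klhl24, Fbxw5, Klhl21, Fbxo9 and Fbxw11. That list, drawn up with earlier results of these data known, had 23 of 24 genes detected, with Fbxl21 the exception at 0.05 and 0.02 TPM (1 count in each library). Its median was 26.3 and 29.3 TPM, and this is no independent evidence of its level. Across the 20 genes in order of mean TPM, the values of 12 of 19 neighbouring pairs overlapped between the animals, so only part of the order is resolved.

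Among the CUL3 adaptors, Klhl31 (chromosome 9, 77636500 to 77660127, mm10) was the most abundant member of all, at 195.6 TPM in animal 1 and 215.5 in animal 2. It ranked 214th among protein-coding genes by mean level. KLHL31 is known from mice that lack it and develop a myopathy, with filamin C as a reported substrate. Klhl41 (chromosome 2, 69670120 to 69684230) stood at 185.7 and 190.8 TPM, close to Asb2 but below it in both animals without overlap. Its product stabilises nebulin, the giant protein of the thin filament, and the related KLHL40 stabilises nebulin and leiomodin-3. Klhl40 stood at 46.0 and 45.3 TPM, well below Klhl41 in each animal and with nearly the same value in both.

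Klhl24, known for the turnover of keratins and other intermediate filament proteins, lay between Klhl41 and Klhl40 at 62.0 and 76.4 TPM. The little-studied muscle genes Klhl33 and Klhl30 stood at 38.2 and 37.9 TPM and at 30.5 and 34.3 TPM. The Klhl33 values lay above those of Klhl30 in both animals. Klhl21 (20.4 and 22.3 TPM) and Klhl9 (16.5 and 17.7), both known from the control of Aurora B in dividing cells, were also among the first 12 Klhl genes. So were Klhl7, a gene of inherited retinal degeneration, at 12.7 and 12.8 TPM, and Klhl8, reported to act on the synaptic scaffold rapsyn, at 8.57 and 9.96. Klhl38 was lower in animal 2, at 12.6 TPM in animal 1 and 8.72 in animal 2, while Klhl34 ran the other way at 5.72 and 8.47.

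In the Kbtbd family, Kbtbd12 alone held 57.8% and 57.3% of the summed TPM, at 24.2 and 30.8. Kbtbd2, which acts on the regulatory subunit of PI3-kinase in insulin signalling, stood at 6.36 and 8.37 TPM. Kbtbd13, the nemaline myopathy gene, was low beside Klhl40 and Klhl41, at 3.41 and 4.53 TPM. Kbtbd4 had 3.50 and 4.72 TPM, but its exons overlap the opposite-strand genes Ndufs3 (181 TPM) and Ptpmt1 (20.7), and the use of strand in counting is not given in the sources used here. Kbtbd7, known for acting on the Rac activator TIAM1 together with KBTBD6, stood at 2.14 and 2.15 TPM.

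Among the CUL5 adaptors, Asb2 (chromosome 12, 103321142 to 103356001) stood at 195.1 TPM in animal 1 and 202.6 in animal 2, and its values overlapped those of Klhl31. ASB2 is known to target filamins, the actin cross-linkers, for degradation. Asb5 reached 62.6 and 63.8 TPM, within the range of Klhl24, and its exons overlap Spcs3 (7.37 TPM) on the opposite strand. Asb11, whose zebrafish counterpart acts on the Notch ligand Delta, had 41.4 and 38.8 TPM. By TPM it was among the 4 of 20 members at 20 TPM or more that were lower in animal 2. By scaled counts others of the 20, such as Klhl41 and Asb2, were lower as well.

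Asb14 (35.9 and 39.7 TPM) and Asb8 (34.8 and 39.9) had overlapping values. Asb16 followed at 28.4 and 27.9 TPM, Asb12 at 22.9 and 24.4 and Asb10 at 20.6 and 26.1. The other muscle-listed Asb genes were lower, Asb18 at 7.0 and 8.83 TPM and Asb15 at 6.56 and 8.15. The first 10 Asb genes held 96.4% and 96.5% of the family's TPM, and Asb2 alone 41.3% and 40.7%. Asb9, whose product binds creatine kinase and which was singled out after its values were seen, had 0 counts in both libraries.

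Among the members, the CUL1 adaptors reached lower levels at their top than the CUL3 and CUL5 adaptors did. The F-box gene Fbxo40, left out by name, stood higher than any F-box member, at 81.6 and 87.4 TPM. Fbxo31, which targets cyclin D1 after DNA damage, was the highest F-box member at 39.0 and 42.4 TPM. Fbxo9, which acts on the mTOR-linked proteins TEL2 and TTI1, stood at 20.4 and 22.1 TPM, and Fbxo3 at 15.5 and 17.5. The glycoprotein-binding Fbxo6 followed at 10.04 and 11.25 TPM, and Fbxo11, an adaptor for BCL6, at 8.93 and 10.6. Fbxo8 had 9.40 and 7.87 TPM, Fbxo22 6.65 and 7.12, Fbxo38 6.56 and 6.85, Fbxo28 6.47 and 6.91 and the synaptic adaptor Fbxo45 4.31 and 5.44.

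In the leucine-rich-repeat F-box family, Fbxl21, reported to act on telethonin, was not detected, as given above. Fbxl17, which removes wrongly paired BTB proteins, stood at 13.99 and 14.79 TPM. Fbxl5, the iron sensor that targets IRP2, reached 9.70 and 10.7 TPM. Fbxl4, a gene of mitochondrial DNA depletion, stood at 5.06 and 5.0. Fbxl14 (3.28 and 4.03 TPM), Fbxl20 (3.27 and 4.04) and Fbxl6 (2.67 and 2.33) were close to each other. Fbxl22, known at the Z-disc of heart muscle, had 2.03 and 2.75 TPM and overlaps Herc1 (11.0 TPM) on the opposite strand.

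In the WD40-repeat F-box family, Fbxw5 had 26.8 and 30.2 TPM and Fbxw11, the paralog of beta-TrCP that recognises phosphorylated beta-catenin and inhibitors of NF-kappa-B, 19.5 and 20.6. Fbxw2 (17.4 and 17.5 TPM), Fbxw4 (7.70 and 9.28), Fbxw7, the adaptor for cyclin E and MYC, (7.14 and 8.03) and Fbxw8 (7.40 and 7.25) completed the first 6. The values of Fbxw7 overlapped those of Fbxw4 and of Fbxw8.

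**Figure D3:**
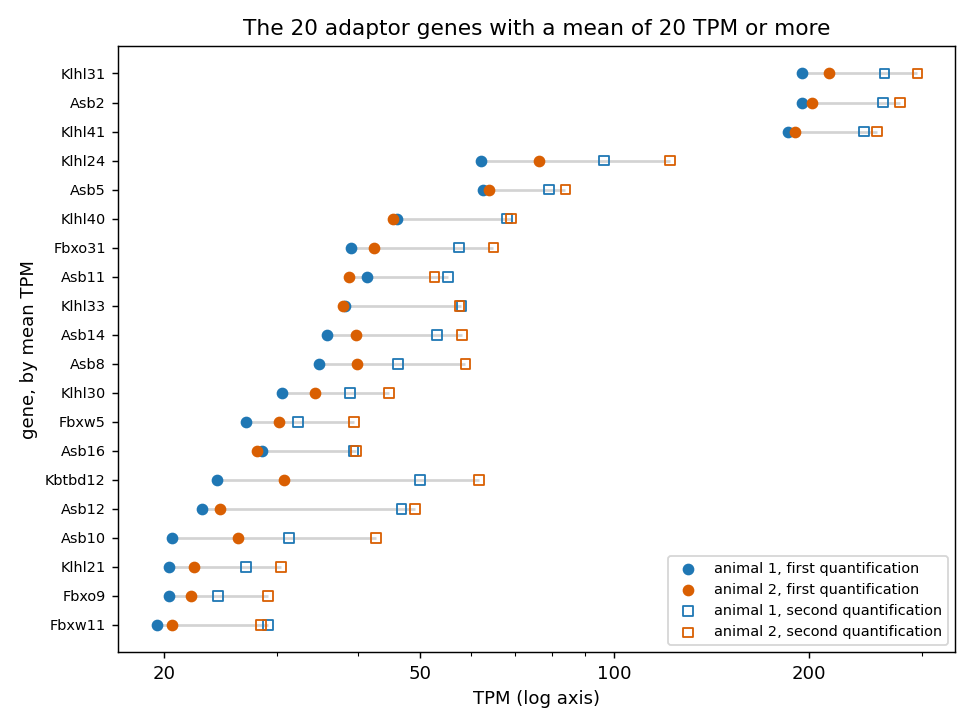
TPM (x axis, log) of the 20 members at a mean of 20 TPM or more (y axis, in order of mean), for animal 1 (blue) and animal 2 (orange) in the first (circles) and the second (squares) deposited quantification. Klhl31, Asb2 and Klhl41 stand apart above 185 TPM in all 4 values, and the next gene, Klhl24, lies at 62.0 and 76.4 TPM in the first quantification.

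Transcript tables show which isoform carried the level. For all 20 members at 20 TPM or more the leading transcript was protein-coding, and it was the same in the second quantification for 17, the exceptions being Fbxo31, Asb11 and Fbxw11. Klhl31, Klhl41, Klhl30, Asb16 and Klhl21 have 1 annotated transcript each, which fixes their share at 100% and their place among these 17. Asb5, with 2 annotated transcripts, had 100% of its TPM in 1 coding transcript in both animals and in both quantifications. Asb2-201 held 79.8% and 80.7% of Asb2 in the first quantification and 99.4% in the second. Klhl24-201 held 53.3% and 51.8% of its gene. Asb14 was the abundant gene with the smallest coding share, 52.1% and 58.2% of TPM in protein-coding transcripts (49.3% in the second quantification).

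Over all members, protein-coding transcripts held 93.3% of TPM in animal 1 and 93.8% in animal 2, and retained-intron transcripts 2.53% and 2.20%. The median coding share of detected members was 93.8%, beside 92.4% for all detected protein-coding genes. Detected members under 50% numbered 5 of 82, or 6.10%, against 7.88% of all. Asb6, singled out after its values were seen, had 0% of 2.63 and 2.13 TPM in coding transcripts in the first quantification and 9.85% in the second, and its leading transcript was a retained intron. The coding share of Fbxo22 was 33.9% in animal 1 and 65.4% in animal 2, but 90.1% in the second quantification, so its isoform split is not resolved.

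Some of the lowest levels fell in 1 stretch of the genome. On chromosome 9, from 109139447 to 109790670 (mm10), 14 Fbxw genes lie side by side over 651224 bases, and all had 0 counts in both libraries in the first quantification. In the second quantification 4 of the 14 were above 0, at a mean of at most 0.125 TPM. The 10 other annotated genes inside that block, none of them protein-coding, also had 0 counts in the first. Of 26 protein-coding genes within 500 kb on either side of it, 18 were detected. These 14 genes account for the Fbxw median of 0 in the first quantification (0.051 TPM in the second), and counts of such close copies are uncertain in either quantification.

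Elsewhere, neighbouring members within 200 kb often stood at different levels. These pairs were singled out after their values were seen. Klhl41 (mean 188 TPM) lies beside Klhl23 (6.98), Klhl24 (69.2) beside Klhl6 (0.29), and on the X chromosome Asb11 (40.1) beside Asb9 with 0 counts. Kbtbd7 (2.15) lies beside Kbtbd6 (0.03), and Fbxo6 (10.6) beside Fbxo44 (2.08) and Fbxo2 (0.11), the last known from brain. Of 7 members on the X chromosome, 5 were detected. Over all chromosomes, 6 members had a leading transcript of 1 exon, among them Klhl9, Klhl34, Kbtbd13 and Kbtbd7, and 5 of these were detected.

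The scaffolds these adaptors need were all present. All 8 cullins were detected (median 19.3 and 21.4 TPM). Cul3 led at 69.7 and 87.1 TPM, followed by Cul4a (23.3 and 26.0), Cul5 (22.1 and 23.3) and Cul1 (20.3 and 22.5). The RING and linker list had 5 of 5 matched genes detected, led by Elob (89.4 and 104.5 TPM) and Skp1a (91.2 and 99.6), with Rbx1, the RING partner of CUL1 and CUL3, at 32.7 and 38 and Rnf7, that of CUL5, at 22.1 and 25.7. Neddylation genes, whose products switch cullins on, were detected in 10 of 10 cases (median 21.8 and 23.4 TPM). The list of the COP9 signalosome and CAND proteins, which switch them off or exchange adaptors, had 13 of 13 detected (24.4 and 29.8 TPM). It also holds Senp8, which belongs to neither group.

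Set beside the cullin that its name families typically bind, each adaptor class summed to several times that cullin's TPM. Binding of single members to another cullin was not considered. The ASB sum was 472 and 498 TPM, or 21.4 times Cul5 in both animals. The KLHL and KBTBD sum was the largest, 720 and 782 TPM, and 10.3 and 8.99 times Cul3. F-box members summed to 304 and 329 TPM, 14.9 and 14.7 times Cul1, but 9.07 times in the second quantification, where Cul1 stood at 49.1 TPM. By mean TPM in the first quantification, 8 of 17 ASB genes exceeded Cul5, while 2 of 45 CUL3 adaptors exceeded Cul3 and 2 of 74 F-box genes exceeded Cul1. In animal 1 alone, Asb10 (20.6 TPM) lay below Cul5 (22.1), and Fbxo9 (20.41) lay above Cul1 (20.33). In the second quantification Fbxw5, above Cul1 in the first, lay below it at a mean of 35.9 TPM. Excluded and differently named adaptors are not in these sums: Fbxo40 stood at 81.6 and 87.4 TPM, Fbxo32 at 37.4 and 40.2, and 16 of 21 matched other adaptors were detected, led by the BTB protein Spop (75.3 and 84.5).

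**Figure D4:**
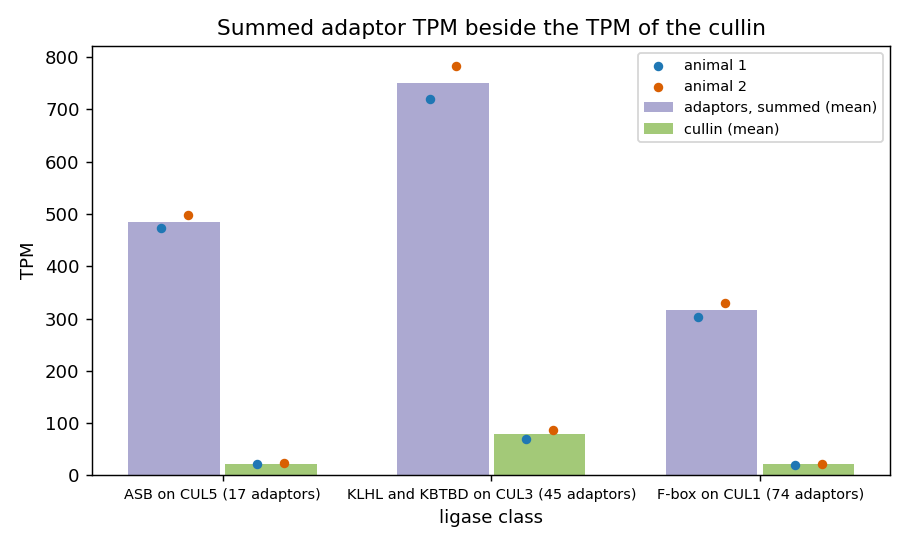
Summed TPM of the adaptors of each ligase class (purple) beside the TPM of its cullin (green), with bars for the mean of the 2 animals and points for animal 1 (blue) and animal 2 (orange). The sums lie at 472 and 498 TPM for ASB, 720 and 782 for KLHL with KBTBD, and 304 and 329 for F-box genes, each above its cullin.

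Reported substrates or stabilised partners of these adaptors were detected in 15 of 16 cases, from 3.39 to 2161 TPM. Wnk4 was the exception at 0.10 and 0.04 TPM. Nebulin, Neb, stood at 2077 and 2245 TPM, telethonin, Tcap, at 1017 and 882, desmin, Des, at 677 and 748, and filamin C, Flnc, at 161 and 164. No relation between an adaptor and its substrate or partner can be tested over 2 animals.

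The animals were compared as libraries with an exact binomial test on TMM-scaled counts, adjusted over all 14749 genes with 20 or more summed counts. Calls required more than a 2-fold difference as well as an adjusted p below 0.05. Of the 101 members tested, 0 were called, beside 1.75% of all genes tested, while 26 (25.7%) had an unadjusted p under 0.05, against 24.7% of all genes tested. Without the fold limit, 8 of the 101 members tested were higher in animal 2, beside 7.96% of all genes tested. Another 8 of the 101 were lower, beside 6.88% of all genes tested. This test covers counting error alone and compares these libraries, not conditions. The median log2 ratio of animal 2 over animal 1 was 0.04 over the members tested and 0.02 over all protein-coding genes tested. By the ratio of TPM these medians were 0.13 and 0.12, so directions of small differences below are relative to the TMM scaling.

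The largest difference past the test was in Klhl38, lower in animal 2 with a log2 ratio of -0.63 (counting SE 0.0801, adjusted p = 1.41e-13 by the exact binomial test) on 766 and 563 counts. It was the 1 member past the test beyond 1.5-fold. Klhl34 differed most in the other direction, with a log2 ratio of 0.46 (counting SE 0.106, adjusted p = 0.000199) on 303 and 475 counts. Also higher in animal 2 were Kbtbd13 and Asb18 (log2 ratio 0.31 each), Asb10 (0.25), Fbxo45 (0.23), Klhl24 (0.16), Kbtbd12 (0.10) and Klhl31 (0.04). Lower were Klhl2, an adaptor for WNK kinases, (-0.44) and Asb11 (-0.21), then Asb16 (-0.13), Klhl33 and Klhl40 (-0.12 each), Klhl41 (-0.06) and Asb2 (-0.05), the last 2 of which turn to 0.04 and 0.05 by the ratio of TPM and to 0.03 and 0.05 with library totals. With library totals the split was 22 higher and 1 lower of 23, and with spike-in scaling 12 and 7 of 19, so the balance of directions depends on the scaling. In the second quantification 18 members passed the exact binomial test. Klhl2 (log2 ratio -0.39, adjusted p = 0.0529 by the exact binomial test), Fbxo45 (0.19, adjusted p = 0.111) and Kbtbd12 (0.06, adjusted p = 0.224) no longer did. There 5 others passed that had not in the first, Asb8 (log2 ratio 0.16), Fbxl22 (0.41), Asb1 (0.24) and Fbxo44 (0.61) higher in animal 2 and Fbxo31 (-0.11) lower. The slow-fibre, Schwann cell, fibroblast and adipocyte markers given above also moved between these libraries. So did the skeletal muscle markers and some endothelial, macrophage and satellite cell markers. The part of all these in the differences was not tested.

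**Figure D5:**
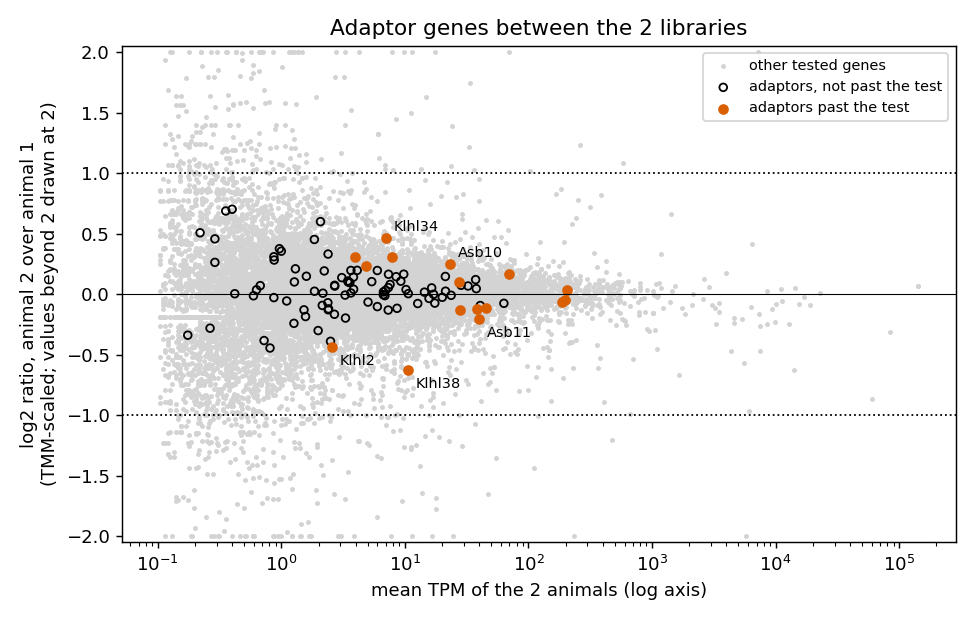
Log2 ratio of animal 2 over animal 1 after TMM scaling (y axis) against mean TPM (x axis, log) for members past the test (orange), the other members tested (black circles) and other tested genes above 0.1 TPM (grey), with dotted lines at 2-fold. No member lies beyond 2-fold, and Klhl38 at -0.63 and Klhl34 at 0.46 are farthest from 0 among those past the test.

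The authors deposited a second quantification of the same libraries, in which 89 members were detected, the 82 of the first and 7 more. Its TPM was higher by a median log2 difference of 0.45 for members at 1 TPM or more and 0.51 for all detected nuclear protein-coding genes, a shift shared by nearly all genes. Relative to that shift the members that differed most were Asb18 (7.92 TPM in the first, 6.16 in the second), Fbxl20 (3.66 and 7.83), Klhl2 (2.59 and 2.56), Kbtbd12 (27.5 and 55.8), Asb12 (23.7 and 47.9) and Asb13 (3.85 and 7.67). These 6 genes therefore have levels that depend on the quantification used.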

How the data were processed

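Total RNA-seq tables of 2 gastrocnemius libraries from 1 group were used as the authors deposited them. Expected counts and TPM per gene and transcript, posterior mean TPM and the percent of each gene's abundance per transcript were made by the authors from a transcriptome alignment on mm10 with GENCODE M21, and estimated counts and TPM of a second transcript table from 1 read file, per the file headers and the descriptions deposited with them. For tools, their versions and whether counting used strand: not given in the sources used here. The authors computed TPM over every entry of the table, so abundant short RNAs (Rn7s, 26.6% and 29.8% of TPM) and mitochondrial genes (24.1% and 18.3%) lower every other gene.

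Gene values of the second table are sums over transcripts. For the libraries' comparison, expected counts were rounded and scaled by TMM (edgeR 4.0.16, R 4.3.3), and each gene whose 2 counts summed to at least 20 was tested with a two-sided exact binomial test, with p-values adjusted by Benjamini-Hochberg and a prior count of 0.5 in the ratios. Tested on simulated data for this comparison with 14755 genes, it called 100 of the 100 genes given a 3-fold change, 100 of the 100 given a 4-fold change and 1 of the 14555 left unchanged. The simulated counts were Poisson draws without variation between animals, and the changes were placed in genes with 100 or more summed counts. The simulation therefore does not give the rate of false calls in these libraries, or the recovery at lower counts. Detected members had 36 to 36071 counts in animal 1 and 44 to 42099 in animal 2 (medians 468 and 563).

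The members and lists were chosen with earlier results of these data known. Named members are those with the highest mean TPM in each family (Asb 8, Klhl 12, Kbtbd 5, Fbxo 10, Fbxl 8, Fbxw 6), the muscle list, members called between the libraries, the 6 that differ most between the quantifications and those nearest 1 TPM. A member that the rule names is not reported here. Members past the adjusted p, detected in 1 animal or noted for isoforms, position or motifs were named after their values were seen. Symbols Skp1 and Fbxo18 had no match under those names. Alternatives covered thresholds, the second quantification, posterior mean TPM, rescaling over nuclear protein-coding genes, scaling factors (DESeq2 1.42.0, totals, spike-ins), count filters and leaving out each animal; those for promoter windows and for called members by the ratio of TPM were added after seeing the data.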

Additional observations from a re-analysis of the deposited data

How the results depend on the processing

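Detected members numbered 82, and from 82 to 93 with a threshold of 0.5 TPM, the second quantification, posterior mean TPM, rescaling over nuclear protein-coding genes, a count minimum or without either animal. A threshold of 5 TPM left 46, in the first quantification and in both together. The median member moved from 2.32 TPM to 3.19 in the second quantification, 2.50 by posterior mean TPM and 5.84 after rescaling over nuclear protein-coding genes, and without either animal it lay between 2.28 and 2.36. Detected members ranged from 82 to 86 when an animal was left out. No member was called between the libraries under any scaling, filter or quantification tried at 2-fold, and 1 was called at 1.5-fold (Klhl38). Members past the adjusted p numbered 16, and from 11 (no filter) to 23 (library totals) under the alternatives. The log2 ratio of Klhl41 and Asb2 reversed to 0.039 and 0.054 by the ratio of TPM, and the cause was not tested. Of 61 named members tested, 3 no longer passed the adjusted p and 3 newly passed it in the second quantification. The members at 20 TPM or more with a MEF2 match stayed at 6 with windows at any distance (of 18) or from 10 TPM (of 18) and were 7 from 5 TPM (of 26), alternatives chosen after seeing the data. No paired analysis was possible because the series has 1 group. Depth limits members under about 20 summed counts, for which a difference between the libraries was not tested.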
